A study of Mus musculus with 6 samples.

Results

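Open chromatin regions that separated the mandibular process from the nose were taken from the 4 ATAC-seq libraries carrying those labels, 2 per label. The best 200000 lines of each deposited peak list, by −log10 q (the negative logarithm of the caller's adjusted p), were merged wherever they overlapped by at least 1 bp, which gave 197276 regions. A region was a member if both libraries of one label called it and neither library of the other label did. This left 12970 regions of the label mandibular process (6.57% of all regions) and 13572 regions of nose (6.88%), beside 59895 regions (30.4%) called in all 4 libraries and 76350 (38.7%) called in a single library. The label mandibular process thus held 48.9% of the 26542 differing regions (Wilson 95% interval 48.3 to 49.5, counting error only), and this share is the reference for every gene and gene list. The 12970 and 13572 regions are described here, and 2 further libraries labelled maxillary process, which the rule did not use, served as a comparison.

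All embryos were wild type (WT) at stage e11.5, no treatment is given, and the cell type is labelled mixed, so each library averaged over every cell type in the dissected piece. Face tissue was dissected fresh and nuclei were treated with Tn5 transposase, an enzyme that inserts sequencing adapters where DNA is accessible. Nothing states that replicates were separate embryos, so the spread between them may be technical. With 2 libraries per label no permutation of libraries could reach p = 0.05, and in bulk tissue fewer cells of a type cannot be told apart from less open chromatin per cell.

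The jaw labels need care. The names of the files labelled mandibular process carried the code of the other jaw process, and the reverse. Hand2, a transcription factor that gives the lower jaw its identity, had 5 regions that the libraries labelled maxillary process shared and the libraries labelled mandibular process both lacked, and 0 the other way round. Against nose it had 7 regions of the label maxillary process and 0 of nose, but only 1 region of the label mandibular process and 2 of nose. The homeobox genes Alx1 and Alx4 of the upper and frontonasal face had 2 and 3 regions of the label mandibular process and 0 of the label maxillary process. Pou3f3, an upper jaw gene, went the other way, with 5 regions of the label maxillary process and 2 of the label mandibular process. Dlx5 and Dlx6, which also mark the lower jaw, gave 0 and 0 and 0 and 1, and Hand1 0 and 0. Over all genes and intergenic space, the label maxillary process had 13529 regions against the label mandibular process, which had 11087. Against nose it had 13799, and nose 12287. The Hand2, Alx1 and Alx4 regions thus went against the labels and those of Pou3f3 with them and with the general lean. Counts this small do not settle the labels. Every direction below is that of the libraries labelled mandibular process, whichever jaw they hold.

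The mandibular and maxillary processes grow from the first pharyngeal arch and are filled by neural crest mesenchyme without Hox expression, while the nasal region forms around the olfactory placode from frontonasal mesenchyme, olfactory epithelium and its young neurons. Distal open chromatin is largely made of enhancers, whose accessibility follows the transcription factors present in a tissue. Basic helix-loop-helix factors of the Twist and Hand families bind E-boxes in face mesenchyme, Runx factors act in skeletal progenitors, and homeodomain, Sox and nuclear receptor proteins are known from placodes and frontonasal tissue.

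Sequences of 8 members are printed as they carry the motifs by which the 2 directions differed and the genes with the most unequal regions. Each is the plus strand of 201 bases centred on the strongest summit in GRCm38. Capitals mark matches, on either strand, to the Twist/Hand E-box CATCTG, the Runx motif TGTGGTT, the Meis motif TGACAG, the nuclear receptor site AGGTCA, the Sox motif ACAATG and the paired homeodomain dimer TAATNNNATTA. The first 4 are regions of the label mandibular process: the region with the best ranks in both libraries (intergenic, 180 kb from Fgf10), the strongest region of Msx2 (in an intron of the noncoding gene Gm34022), and the best-ranked 2 regions within 100 kb of a start site that held both the E-box and the Runx motif, 25.3 kb from Ipo8 and 32.3 kb from Wars2, both intronic.
Fgf10, chr13:118894273-118894473: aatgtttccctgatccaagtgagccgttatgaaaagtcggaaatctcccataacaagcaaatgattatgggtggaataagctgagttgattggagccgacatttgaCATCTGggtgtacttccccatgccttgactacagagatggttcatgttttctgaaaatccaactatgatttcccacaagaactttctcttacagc
Msx2, chr13:53520590-53520790: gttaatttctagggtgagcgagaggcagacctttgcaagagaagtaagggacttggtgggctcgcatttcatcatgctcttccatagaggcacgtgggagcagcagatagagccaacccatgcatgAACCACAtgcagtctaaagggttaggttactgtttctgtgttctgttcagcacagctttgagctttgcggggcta
Ipo8, chr6:148856689-148856889: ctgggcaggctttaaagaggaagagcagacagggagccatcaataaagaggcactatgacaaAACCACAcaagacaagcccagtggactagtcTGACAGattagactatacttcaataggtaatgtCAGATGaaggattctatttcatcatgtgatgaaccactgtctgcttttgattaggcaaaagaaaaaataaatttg
Wars2, chr3:99173291-99173491: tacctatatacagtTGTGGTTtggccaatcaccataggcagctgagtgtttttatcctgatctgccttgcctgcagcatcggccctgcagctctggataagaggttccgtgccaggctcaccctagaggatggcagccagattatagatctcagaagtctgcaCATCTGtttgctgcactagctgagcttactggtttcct
The other 4 are regions of nose. They open with the strongest region of Fezf1 (intergenic, 36.6 kb from its start site) and the region at the Fezf1 promoter (0.185 kb). The next 2 are the best-ranked with the paired homeodomain dimer under the same limits, in an intron 34.1 kb from Filip1 and intergenic 49.2 kb from B430305J03Rik.
Fezf1 distal, chr6:23211700-23211900: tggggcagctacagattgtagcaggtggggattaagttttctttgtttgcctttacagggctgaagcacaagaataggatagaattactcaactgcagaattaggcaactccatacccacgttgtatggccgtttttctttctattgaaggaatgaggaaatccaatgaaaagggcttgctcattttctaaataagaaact
Fezf1 promoter, chr6:23248447-23248647: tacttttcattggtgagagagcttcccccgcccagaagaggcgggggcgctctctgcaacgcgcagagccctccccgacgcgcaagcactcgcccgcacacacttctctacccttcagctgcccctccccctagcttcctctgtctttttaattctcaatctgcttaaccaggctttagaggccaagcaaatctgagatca
Filip1, chr9:79943630-79943830: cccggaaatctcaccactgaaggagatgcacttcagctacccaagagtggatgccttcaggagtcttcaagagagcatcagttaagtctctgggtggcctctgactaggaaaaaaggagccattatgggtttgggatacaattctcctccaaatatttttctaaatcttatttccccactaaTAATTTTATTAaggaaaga
B430305J03Rik, chr3:61415059-61415259: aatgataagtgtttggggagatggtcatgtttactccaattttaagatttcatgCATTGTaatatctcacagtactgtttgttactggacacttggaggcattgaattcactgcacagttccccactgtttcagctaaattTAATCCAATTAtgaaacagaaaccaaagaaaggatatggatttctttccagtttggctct
The Fgf10 window carried the E-box, the Msx2 window the Runx motif, and both Fezf1 windows none of these motifs.

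Regions of the label mandibular process were marked by the Twist/Hand E-box. It was found in 3943 of 12970 windows (30.4%), against 2364 of 13572 windows of nose (17.4%) and 20.9% of all regions. The difference was 13 percentage points (95% interval 12 to 14, Newcombe method, counting error only). The Runx motif was found in 9.68% against 4.28% (all regions 5.62%), a difference of 5.40 points (4.79 to 6.01), and both motifs stood in the same window in 340 regions of the label mandibular process (2.62%) and 98 of nose (0.722%, all regions 1.3%). The Meis motif, bound by homeodomain partners of Hox and Pbx proteins, followed with 18.1% against 14.6% (all regions 15.6%). The Pou octamer ATGCAAAT was found in 1.54% against 0.928% of windows (all regions 1.20%).

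Regions of nose held more of the motifs of nuclear receptors, Sox, Tfap2 and homeodomain factors. The nuclear receptor site, shared by many receptors including those for retinoic acid and the Nr2f proteins, was found in 12.1% of nose windows and 7.05% of those of the label mandibular process (all regions 9.46%), a difference of −5.07 points (−5.77 to −4.36). The paired homeodomain dimer was rare but showed the largest ratio, with 140 nose windows (1.03%) against 33 (0.254%) and 0.396% of all regions. The Sox motif was found in 12.7% against 9.46% (all regions 9.54%). The Pitx/Otx motif TAATCC was found in 8.97% against 6.53% (6.52%), the single homeodomain motif TAATTA in 6.84% against 4.94% (4.89%), and the Tfap2 motif GCCNNNGGC in 7.21% against 4.29% (7.69%). For the Sox, Pitx/Otx and single homeodomain motifs the label mandibular process stood near the level of all regions and nose above it, whereas for Tfap2 nose stood near it and the label mandibular process below.

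Of the 24 motifs searched, the interval of the difference lay above 0 for 6 and below 0 for 13. The remaining ones above 0 were AP-1 (TGANTCA, 7.77% against 6.96%, all regions 6.66%) and Ctcf (CCANNAGNNGGC, 2.77% against 2.06%, all regions 4.67%). Also below 0 were the neurogenic E-box CAGCTG (16.3% against 17.5%, all regions 16.3%), the motif AGATAA of Gata factors (8.57% and 9.59%, 8.27%), Tead ACATTCC (4.58% and 5.47%, 4.45%), Fox TGTTTAC (3.05% and 3.50%, 3.0%), the Rfx site GTTGCCA (2.52% and 2.92%, 2.80%) and Grhl AACCGGTT (0.0463% and 0.118%, 0.109%). The interval held 0 for Ebf TCCCNNGGGA (0.524% and 0.575%, all regions 0.534%), Trp63 CATGNNNNNNCATG (0.702% and 0.516%, 0.614%), Nfi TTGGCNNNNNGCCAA (0.0771% and 0.0884%, 0.0694%), Gli GGGTGGTC (0.439% and 0.486%, 0.470%) and Ets CCGGAA (2.16% and 2.48%, 4.30%). All motifs were searched on both strands, and the Twist/Hand and neurogenic E-boxes share the outer letters of the general E-box but not a full match. A homeodomain match can lie inside a dimer match. The difference of the neurogenic E-box changed sign when both directions were given the same GC distribution, and that of Grhl in regions called in both maxillary libraries. These are matches of letters and not bound sites.

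Many of the motif differences, but not all, were also present in regions the rule did not use. Among regions called in a single library of the 4, the Twist/Hand E-box was found in 24.9% and 22.8% of those of mandibular process replicates 1 and 2 and in 17.5% and 17.9% of those of nose replicates 1 and 2. The 2 labels did not overlap, and neither did they for the Runx motif, with 8.30% and 6.10% against 4.71% and 3.98%. For the nuclear receptor site the values were 7.39% and 10.2% for the label mandibular process and 10.4% and 13.5% for nose, so that the second replicate of the one and the first of the other stood side by side. For the paired homeodomain dimer they were 0.274% and 0.257% against 0.551% and 0.623%. In all, the labels did not overlap for 16 of 24 motifs (66.7%), each time in the direction of the members. Among the 16 were Trp63 and Ets, whose interval in the members held 0. The labels did overlap for the neurogenic E-box, Fox, AP-1, Tead and the Rfx site, whose interval in the members lay off 0. As each label has only 2 libraries, this is a description.

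**Figure D1:**
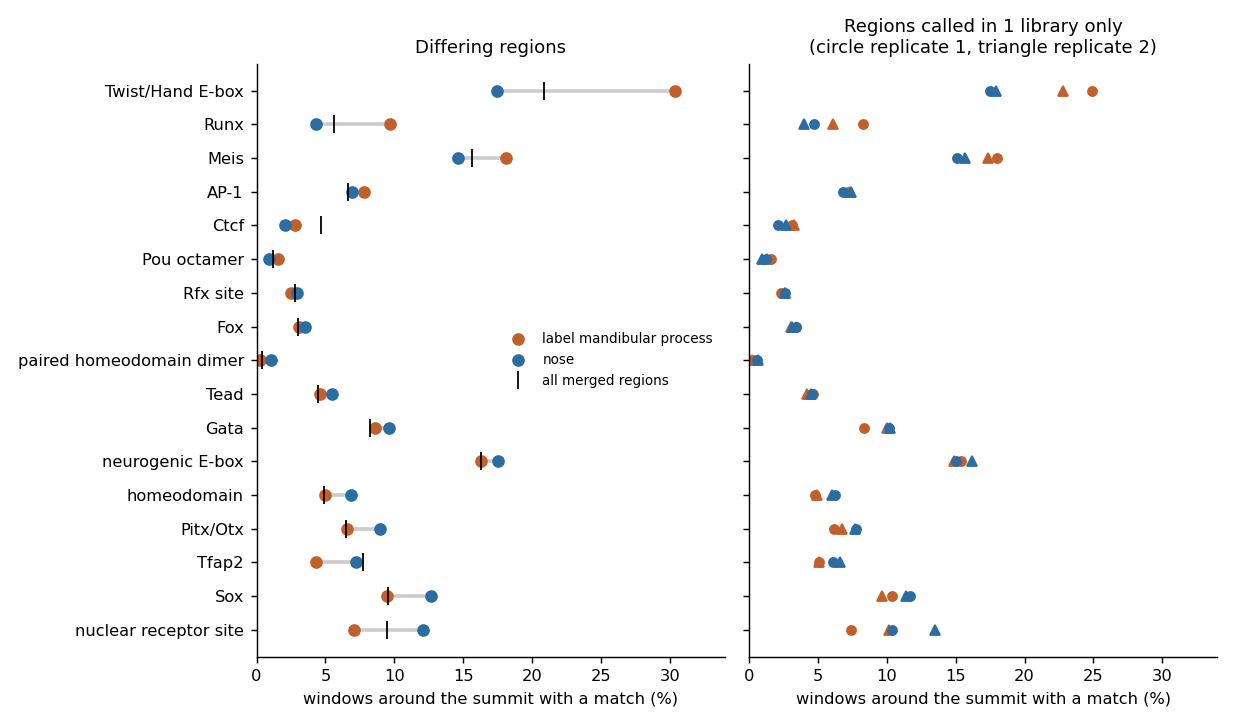
Share of 201-bp windows with a motif match, for 17 of the motifs whose difference interval does not hold 0. The left panel gives the regions of the label mandibular process (orange), of nose (blue) and all merged regions (black tick), and the right panel the regions called in 1 library only, where the Twist/Hand E-box stood at 22.8% or more in the libraries labelled mandibular process and at 17.9% or less in nose.

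The share of members with the Runx motif differed with peak strength in the label mandibular process. When members were divided by the poorer of their 2 ranks, the Runx motif was found in 49 of 214 regions of the label mandibular process within the best 50000 (22.9%, Wilson interval 17.8 to 29.0), in 12.9% at ranks 50001 to 100000, in 10.5% at ranks 100001 to 150000 and in 8.02% of the weakest 7124. In nose the same steps gave 4.88%, 4.77%, 4.28% and 4.14%. The strongest regions of the label mandibular process therefore held the motif more often than the weakest, while the nose regions showed no such slope. The Sox motif had its highest share among the strongest members of both directions, 19.9% in nose and 15% in the label mandibular process, and 12.1% and 9.43% among the weakest. The E-box share of the label mandibular process stood between 28.1% and 35.4% in every step, and that of nose between 15% and 18%. From the strongest to the weakest step, the Meis motif went from 22.4% to 17.9% in the label mandibular process and from 10.6% to 14.9% in nose, and the nuclear receptor site from 6.07% to 7.19% and from 8.94% to 12.3%. The paired homeodomain dimer was found in 0 of the 214 strongest regions of the label mandibular process and in 1.22% of the 246 of nose, against 0.309% and 0.887% of the weakest.

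The members were weak peaks far from promoters, with strength partly tied to the rule, which ranks lines by −log10 q. Their median −log10 q was 5.26 and 4.30 in mandibular process replicates 1 and 2, and 4.01 and 4.81 in nose replicates 1 and 2, whereas regions called in all 4 libraries had medians from 9.65 to 11.6. Only 214 regions of the label mandibular process and 246 of nose stood in the best 50000 lines of both of their libraries. The summits of the 2 libraries lay a median of 26 bp apart in the label mandibular process and 30 bp in nose. Just inside the limit of 200000, 1813 regions of the label mandibular process (14%) and 1588 of nose (11.7%) had a poorer rank in the last 5% of the list.

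By position, 46.6% of the regions of the label mandibular process lay in introns and 45.8% between genes, against 48.0% and 44.4% in nose. Promoters (within 1 kb of a protein-coding start site) held 3.85% and 4.07%, against 29.4% of regions called in all 4 libraries. The median distance to a start site was 67.6 kb and 69.5 kb against 20.8 kb, and the median width 295 and 285 bp against 503 bp. In position the 2 directions were thus alike to within 2 percentage points and both unlike the shared regions. A shared region joins the lines of 4 libraries and a member those of 2, so their widths are not measured alike. The median GC content was 44.8% in the label mandibular process, 46.3% in nose and 52.2% in shared regions, and on average 13.7% and 11.1% of the bases of a window were repeat-masked in the label mandibular process and nose.

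By the poorer of its 2 ranks, as for the regions named next, the best-ranked region of the label mandibular process (chr13:118893924-118894610) lay 180 kb from Fgf10. Fgf10 is a growth factor of branching organs and the palate. The −log10 q of this region was 26.2 and 24.5 in mandibular process replicates 1 and 2. Nose replicate 1 had no line there and nose replicate 2 a line at 2.63, beyond the best 200000. It was also strong in maxillary process replicates 1 and 2 (20.8 and 34.5). The best-ranked region of nose (chr14:120758300-120758949), 153 kb from Ipo5, had 28.3 and 34 in nose and no line in any of the other 4 libraries. These regions show the extremes of overlap with the third label. Also among the 5 best-ranked were regions of the label mandibular process 390 kb from Gm9195 (31.6 and 24.3), 153 kb from Pex3 (25.3 and 22.5) and 877 kb from Cdh7 (26.6 and 21.3), the last with no line in either nose list. In nose they were regions 334 kb from Slc10a2 (26.2 and 26.9), 69.1 kb from Rnpc3 (22.9 and 29.6), 90.9 kb from Ppp1r1c (24 and 24.9) and 50.9 kb from Itpr1 (22.6 and 24.8), the last with no line in either list labelled mandibular process.

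An absence was often a matter of rank. Among the regions of the label mandibular process, 6237 (48.1%) overlapped a weaker line of at least 1 nose list beyond the best 200000, and 6733 (51.9%) overlapped none. For nose the counts were 6504 (47.9%) and 7068 (52.1%). No line in any of the other 4 libraries was left for 2960 (22.8%) and 3662 (27%). On the 6733 and 7068 regions with no weaker line, the Twist/Hand E-box was found in 32.6% and 16.4%, the Runx motif in 10.9% and 4.19%, and the paired homeodomain dimer in 0.267% and 1.29%, so each of these differences was wider there.

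In the libraries labelled maxillary process, regions of the label mandibular process were called more often than those of nose. Replicate 1 called 42.2% against 35.0% (difference 7.20 points, interval 6.03 to 8.37) and replicate 2 called 36.5% against 34.1% (2.42 points, 1.27 to 3.57). Both libraries called 26.0% and 22.5%, and neither called 47.3% and 53.4%. Regions shared by the 4 libraries were called in 91.7% and 93.0%. The share over all merged regions is not given here, so neither direction is set against a general rate. Neither difference between the directions was stable. With the best 50000 lines they were 1.76 points in replicate 1 and −3.56 in replicate 2, and with 1 library per label between 3.43 and 5.75 and between −0.151 and 3.80. Without mandibular process replicate 1 they were −13.4 and −15.6 points, without its replicate 2 −12.5 and −17.3, and without a nose library 23.7 and 18.7 or 24.4 and 22.0, comparisons of 1 library with 2. The E-box difference did not need this overlap, as it was 28.0% against 16.6% in regions called in neither maxillary library and 36.3% against 19.6% in those called in both.

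**Figure D2:**
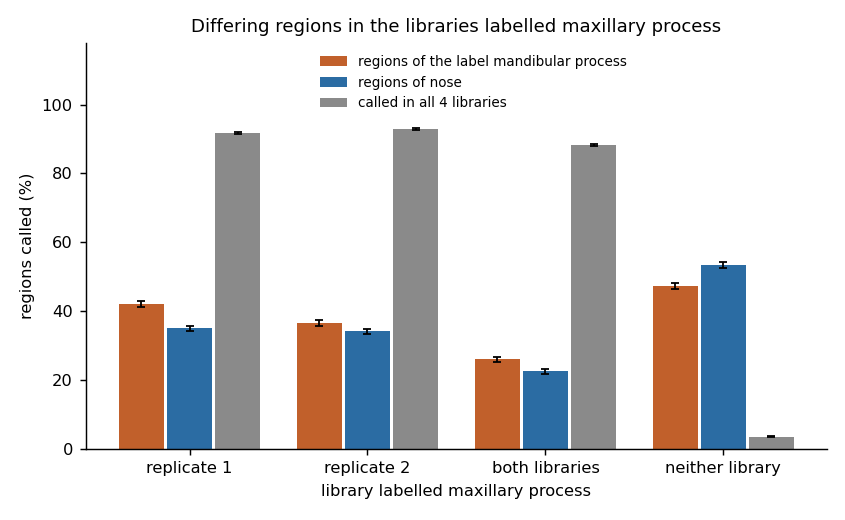
Percent of the regions of each direction, and of regions called in all 4 libraries, that each library labelled maxillary process called, with Wilson 95% intervals (counting error only). Regions of the label mandibular process stood above nose by 7.20 points in replicate 1 and 2.42 points in replicate 2, and both far below the shared regions.

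Across genes no difference passed the test. Of the members, 7695 (59.3%) and 8034 (59.2%) lay within 100 kb of a protein-coding start site, nearest to 7559 genes, of which 614 had at least 5 differing regions. An exact two-sided binomial test of each gene's directions against the 48.9% share, with Benjamini-Hochberg adjustment over the 614 genes, called 0 genes (0%), the smallest adjusted p being 0.483. Regions per gene were few for such a test. Elavl4, with 0 regions of the label mandibular process and 5 of nose, reached only an exact binomial p of 0.0628. A result of 0 genes therefore does not show that no gene differs. At an unadjusted p under 0.05 there were 46 genes (7.49%), 25 towards the label mandibular process and 21 towards nose. All differing regions were of the label mandibular process in 22 genes (3.58%) and of nose in 42 (6.84%). The median difference of counts was 0 over all genes and −1 over those tested. The genes named next are the extremes of this distribution, given as a description, and the regions of a gene are not independent of each other.

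Fezf1, a zinc-finger repressor of the olfactory epithelium needed for its axons to reach the brain, had 0 regions of the label mandibular process and 10 of nose. Within 100 kb, 6 and 10 of its 21 regions were called in mandibular process replicates 1 and 2, 18 and 17 in nose replicates 1 and 2, and 8 and 11 in maxillary process replicates 1 and 2. By the rule, the 10 nose regions count in both nose libraries and in neither labelled mandibular process. The gap between these 4 libraries is therefore no separate result. Of the 10, maxillary process replicates 1 and 2 called 2 and 4. The strongest (chr6:23211586-23211884) had a −log10 q of 11.7 and 14.7 in nose, no line in either list labelled mandibular process or in maxillary process replicate 1, and 5.79 in maxillary process replicate 2. The promoter region (chr6:23248429-23248602) had 6.63 and 6.15 in nose, a weaker line at 2.18 in mandibular process replicate 1, none in replicate 2, and was called in both libraries labelled maxillary process. Of the other regions, 4 lay between genes and 5 in introns of the neighbouring gene Cadps2, a regulator of vesicle release, so that nearness does not show which gene they serve. Of the 10 regions, 5 were called in neither maxillary library and 3 had no line in the whole lists of the label mandibular process.

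Camk2d, a calcium-dependent kinase, had 0 and 11 regions (17, 14, 26 and 28 of 40 called in mandibular process 1 and 2 and nose 1 and 2), which gave the smallest p of all genes (exact binomial p = 0.00100, adjusted p = 0.483). Of its 11 nose regions, 7 lay within the gene and 7 were called in neither maxillary library. Sema3d, a secreted guidance cue for axons and migrating crest cells, had 0 and 9 regions (11, 6, 15 and 16 of 22), of which 6 had no line in the whole lists of the label mandibular process. Its best-ranked region (chr5:12426716-12427307, in an intron) had a −log10 q of 10.4 and 11 in nose and no line elsewhere. Nr2f2, a nuclear receptor of the upper jaw list, had 1 and 8 regions (19, 20, 23 and 31 of 37), 5 of the 8 being called in neither maxillary library, and one at chr7:70390503-70391132 had 12.7 and 7.77 in nose and no line in the other 4 lists. Tle1, a Groucho corepressor, had 0 and 7.

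Further genes with a large excess of nose regions were Tiam1 (2 and 11) and Psd3 (2 and 10), exchange factors for small GTPases, Nckap5 (3 and 11) and the receptor phosphatase Ptprg (1 and 8). These are long genes with many regions, from 48 for Ptprg to 85 for Nckap5, most of them intronic. The excess of nose was found in each of the 20 alternative settings for Fezf1, Camk2d, Sema3d and Tiam1. Of these settings, 1 repeated the main rule and was no separate check.

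**Figure D3:**
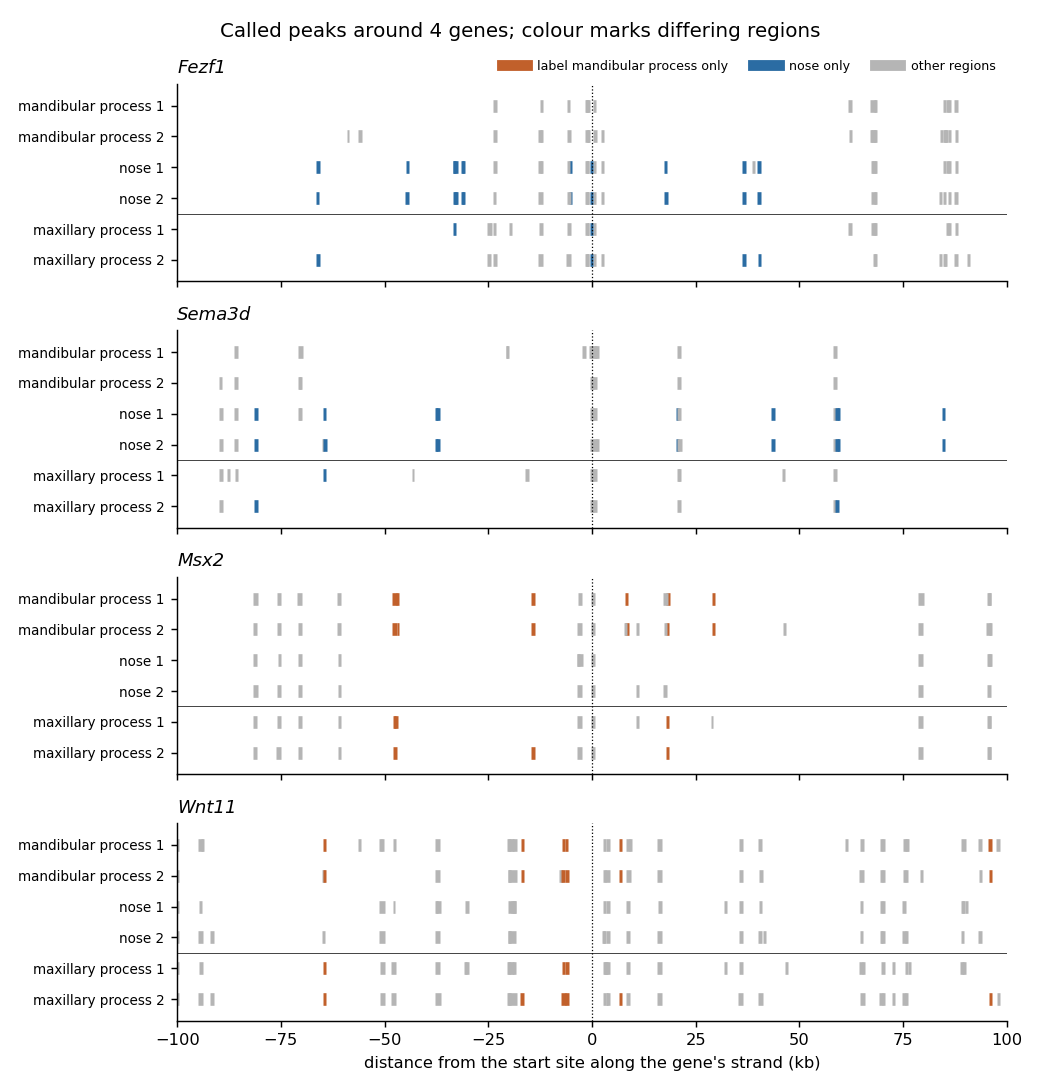
Called peaks within 100 kb of the start sites of Fezf1, Sema3d, Msx2 and Wnt11 in the 6 libraries (best 200000 lines each), by distance along the gene's strand, each drawn 0.3 kb wider on both sides. Blue marks the regions of nose (10 at Fezf1, 9 at Sema3d), orange those of the label mandibular process (6 at Msx2, 6 at Wnt11), and grey the rest.

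On the other side, Msx2, a homeodomain factor of facial mesenchyme and skull bone, had 6 regions of the label mandibular process and 0 of nose. Of its 16 regions, 13 and 16 were called in mandibular process replicates 1 and 2, 6 and 8 in nose replicates 1 and 2, and 9 in each library labelled maxillary process. By the rule, the 6 regions count in both libraries labelled mandibular process and in neither nose library. The lower nose counts at Msx2 are therefore no separate result. Its strongest region (chr13:53520396-53521027, 47.6 kb away, with the Runx motif printed above) had a −log10 q of 7.24 and 9.33 in the label mandibular process, 1.46 and 2.63 in nose, and 4.86 and 16.5 in the label maxillary process. The related gene Msx1 had 0 and 0.

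Wnt11, a ligand of the noncanonical Wnt pathway, also had 6 and 0 regions (28, 23, 18 and 19 of 36 called in mandibular process 1 and 2 and nose 1 and 2). All 6 were called in maxillary process replicate 2 and 3 in replicate 1. The strongest (chr7:98770641-98770797, 64.4 kb from the start site) had a −log10 q of 13.9 and 10.4 in the label mandibular process, 1.46 and 1.85 in nose, and 3.91 and 7.64 in the label maxillary process. Tril, a partner of a Toll-like receptor, had 9 and 1 (21, 21, 12 and 9 of 29), 6 of the 9 lying in introns of other genes. Btbd11 had 7 and 0 (23, 23, 17 and 13 of 31), all intronic.

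The others with the largest excess of the label mandibular process were Glis3 (6 and 0), a zinc-finger factor, Ntn4 (6 and 0), a netrin of basement membranes, Vgll3 (6 and 0), a cofactor of Tead proteins, 1700020N01Rik (6 and 0), Disp1 (7 and 1), which releases Hedgehog ligands from cells, and Kalrn (7 and 1), an exchange factor for small GTPases. For Glis3, 5 of 6 regions were called in neither maxillary library, for Vgll3 4 of 6, and for Wnt11 0 of 6. Vgll3 changed to an excess of nose with the best 100000 and the best 50000 lines. The other 9 genes of this direction showed no excess of nose in any of the 20 alternative settings.

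**Figure D4:**
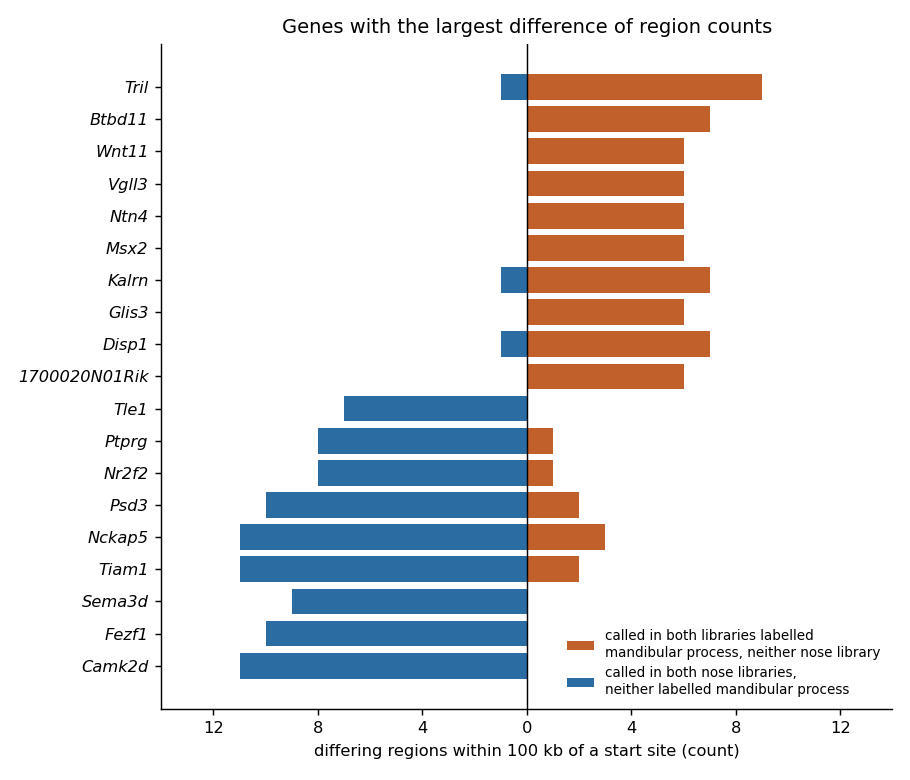
Differing regions within 100 kb of a start site for 19 of the 20 genes with the largest difference of counts, regions of the label mandibular process to the right and of nose to the left. Camk2d (0 and 11) and Tril (9 and 1) were the extremes, and no gene passed the adjusted test.

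The genes fixed for the label check showed few differences against nose. With the label mandibular process given first, Dlx5 had 2 and 0, Dlx6 2 and 3 and Hand1 0 and 0, and the counts were 1 and 1 for Alx1, 3 and 1 for Alx4, 2 and 6 for Pou3f3 and 2 and 4 for Pax6. Pou3f3, an upper jaw factor, thus leaned towards nose, with 19 and 17 of 38 regions called in the label mandibular process and 28 and 27 in nose.

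For tissue identity, the 22 gene lists are given by their counts beside the 48.9% of all differing regions, and over all genes the median difference was 0. The nasal epithelium list, with factors of the olfactory placode, had 9 regions of the label mandibular process and 24 of nose (27.3%, Wilson interval 15.1 to 44.2), with 5 of its 12 genes leaning to nose and 4 the other way. Fezf1 gave 10 of the 24, and Pax6 (2 and 4), Sox2 and Ebf2 (0 and 2 each) 8 more, while Six4 had 2 and 0. The neuron list had 2 and 11 (15.4%, 4.33 to 42.2), of which 5 were at Elavl4, an RNA-binding protein of young neurons, and 2 at Pou4f1. These 2 lists were the only ones whose interval did not reach the overall share. Cartilage and bone and pharyngeal endoderm had lower shares than nasal epithelium (26.7% each, 10.9 to 52.0), but on 15 regions each against 33. Most lists leaned to nose, so such a lean was not particular to the nasal epithelium and neuron lists.

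Among mesenchymal lists, general facial mesenchyme had 21 and 17, led by Msx2, with Twist1 and Twist2 at 2 and 0 each and Osr1 and Osr2 at 2 and 5 each. The lower jaw list had 9 and 9, first arch 12 and 11 (Lhx8 1 and 5, Pitx1 2 and 0), frontonasal mesenchyme 11 and 13 (Pax7 1 and 4), and upper jaw 11 and 19, of which Nr2f2 and Pou3f3 gave 14 of the 19. Cartilage and bone had 4 and 11, with Sox5 at 1 and 5 (opposite in 4 of 20 alternative settings) and Sox9, the master factor of cartilage, at 2 and 4. The second-arch Hox list had 1 and 0, the region lying at Hoxd3.

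Of the lists for other cell types that a dissection can hold, forebrain and eye had 8 and 8 (Otx2 4 and 1, Six3 0 and 3), surface and oral epithelium 5 and 8 (Trp63 2 and 2), pharyngeal endoderm 4 and 11 (Pax1 0 and 4, Pax9 3 and 2), and muscle 5 and 10 (Msc 0 and 4, Isl1 2 and 2). Endothelium had 11 and 14 (Erg 5 and 3), blood 6 and 5 (Runx1 1 and 4, opposite in 8 of 20 settings), and Schwann precursors and melanoblasts 5 and 6 (Mitf 4 and 4). The part of different cell mixtures in the gene and motif differences was not tested.

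Of the signalling lists, Wnt had 12 and 6, of which Wnt11 gave 6 of the 12 and the antagonist Dkk1 2. Hedgehog had 7 and 14, with the receptor Ptch1 at 0 and 3, the ligand Shh at 0 and 1 and Gli3 at 2 and 5 (opposite in 7 of 20 settings). Bmp and Tgfb had 10 and 14, with the ligands Bmp2 at 1 and 5 and Bmp7 at 0 and 4 and the antagonists Grem1 at 2 and 0 and Nog at 2 and 1. Retinoic acid had 6 and 10, with the receptor Rarg at 1 and 4, the degrading enzyme Cyp26b1 at 0 and 2 and the synthetic enzyme Aldh1a3 at 2 and 0. The endothelin pathway had 3 and 7 (Ece1, which activates endothelin, 0 and 3, opposite in 2 of 20 settings) and Fgf 4 and 5 (Fgfr2 2 and 3, opposite in 8). In every list except nasal epithelium and general facial mesenchyme whose counts were unequal, the excess changed side in at least 1 of the 16 settings with equal numbers of libraries.

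**Figure D5:**
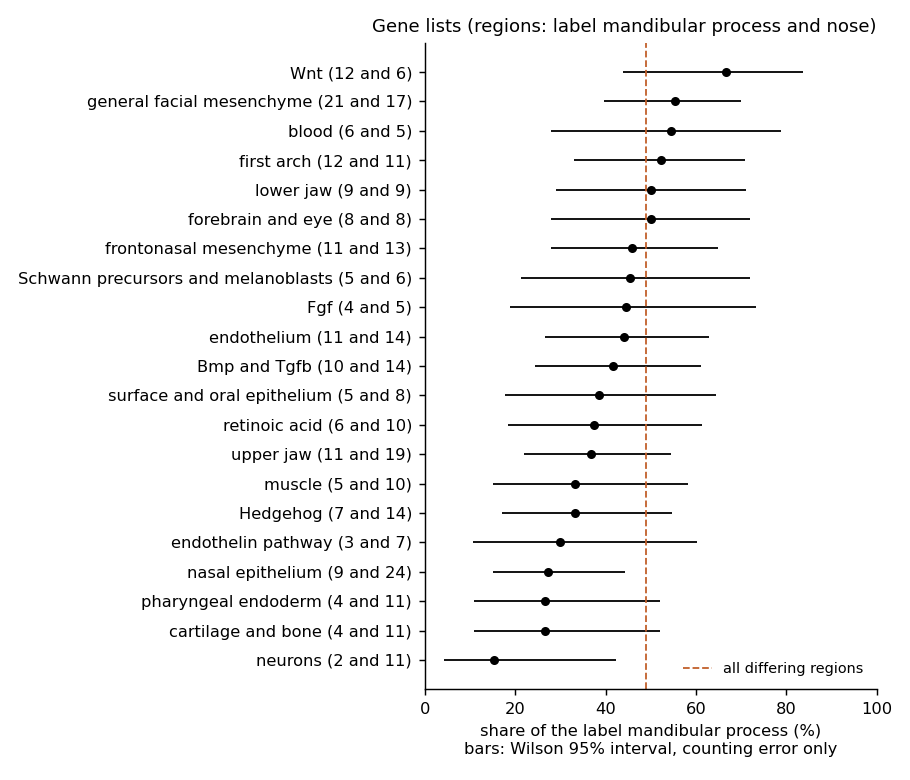
Share of the label mandibular process among the differing regions of each gene list with at least 5 such regions (counts of both directions in brackets), with Wilson 95% intervals (counting error only) and the share over all differing regions as a dashed line. Neurons (15.4%) lay furthest below it, cartilage and bone and pharyngeal endoderm (26.7% each) and nasal epithelium (27.3%) next, and Wnt (66.7%) furthest above.

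Members at promoters of list genes numbered 11 for the label mandibular process and 20 for nose. In the label mandibular process they included Dlx5, Alx4, Pax7, Pax9, Otx2, Lhx2 and Gli1, and in nose Fezf1, Pax6, Lhx6, Lhx8 (2 regions), Pax9, Elavl4, Stmn2, Myf5, Wnt5a and Cyp26b1. A promoter region of either direction does not show the gene's expression, which was not measured here. Pax9 had a region of each direction at its promoters.

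Differing regions were also counted in windows of 1 Mb, chosen after the data were seen. Of 2487 windows with a differing region, 1334 had at least 10, and their median share of the label mandibular process was 47.1%. Over 80% of the regions were of the label mandibular process in 58 windows (4.35%) and under 20% in 64 (4.80%). No expected number of such windows was computed, and the windows named next are extremes, given as a description. The window of chromosome 6 from 53000001 to 54000000, with Creb5, Cpvl, Jazf1 and Tril, had 23 and 4, of which 11 and 2 were absent from the whole lists of the other label. That of chromosome 1 from 75000001 had 18 and 1, that of chromosome 13 from 53000001, with Msx2 and Ror2, the receptor of noncanonical Wnt ligands, 17 and 1, and that of chromosome 12 from 80000001, with Zfp36l1 and Actn1, 16 and 1. Towards nose stood the Fezf1 and Cadps2 window of chromosome 6 from 23000001 (2 and 20), the Camk2d and Ank2 window of chromosome 3 from 126000001 (5 and 20), the Tle1 window of chromosome 4 from 72000001 (3 and 17) and a window of chromosome 15 from 55000001 with Deptor, Sntb1 and Col14a1 (3 and 17).

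Chromosome 11 stood apart from the others. It held 679 regions of the label mandibular process and 444 of nose (60.5%, interval 57.6 to 63.3), while the other autosomes ranged from 43.6% on chromosome 17 to 55.5% on chromosome 13. The excess lay beyond 50 Mb, with 429 and 177 regions (70.8%, 67.0 to 74.3), whereas the first 50 Mb had 250 and 267 (48.4%) and all other chromosomes 48.4%. Of the lines used, chromosome 11 took 5.12% and 5.32% in mandibular process replicates 1 and 2, 4.78% and 4.82% in nose replicates 1 and 2, and 4.95% and 4.87% in maxillary process replicates 1 and 2. Both libraries labelled mandibular process were thus the highest of the 6. In that part the E-box was found in 27.5% of the 429 regions and 15.3% of the 177. No cause of the excess was tested.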

How the data were processed

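Bulk ATAC-seq lists of 6 libraries were used, single-end 50 bp reads, 2 per label. Per the submitters' processing notes, Bowtie2, SAMtools and mm10 were used, without versions. The peak caller is not given for these lists in the sources used here, and the study's ATAC-seq methods (an ENCODE pipeline with read subsampling and blacklist removal) do not say that they cover them. Each library's list, as deposited by the authors in narrowPeak format, gives per summit a fold (ratio) of signal, the −log10 of p and of q, and a score that was 10 times the −log10 p without decimals, at most 1000. These values ranked lines within a list only, and reads were not used, so depth is unknown. Lists held 219779 to 299731 lines. The last line used had a −log10 q of 3.14 and 2.58 (mandibular process 1 and 2), 2.27 and 2.63 (nose) and 2.01 and 4.31 (maxillary process), so equal length was not equal stringency.

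The members and gene lists were chosen with earlier results of these data known. Regions were assigned by strongest summit to the nearest of 21827 protein-coding genes (GENCODE M21 basic). GRCm38 sequence came from RefSeq, whose chromosome lengths held every region. Windows containing undetermined bases were left out. The genes named were those of the label check, up to 10 per direction past the threshold, up to 10 per direction with the largest difference of counts (at least 5 differing regions), and in each list the member with most differing regions (at least 2). The regions named were the 5 per direction with the best poorer rank and the best of named genes. Other members named within a list, promoter members, the 1-Mb windows, chromosome 11, single-library regions, the GC, repeat and maxillary subsets and 1 library per label were chosen after their values were seen. The test was checked on data with known answers, with recovery required only at region counts larger than the real ones. Same-numbered libraries did not deviate together (r = 0.0117 over 197276 regions), so numbers were not used as pairs. Scripts ran in Python 3.11.15 with scipy 1.17.1 (tests), pandas 2.3.3, numpy 2.4.6 and matplotlib 3.10.9. Alternatives were list length, ranking, overlap, absence, chromosomes, gene window and libraries left out. Some genes and 1 motif that these rules select are not reported here.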

Additional observations from a re-analysis of the deposited data

How the results depend on the processing

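Counts of regions of the label mandibular process and of nose were 20075 and 20477 with whole lists, 6436 and 6173 with the best 100000 lines, 2859 and 2632 with the best 50000, and 6733 and 7068 where absence covered whole lists. The share of the label mandibular process was 49.5% with whole lists, 51.04% with the best 100000 lines, 52.1% with the best 50000, 50.6% with 150000 distinct intervals, 47.9% ranked by fold and 51.4% where a library had to cover 50% or 200 bp. The difference between directions in the share called by maxillary process replicates 1 and 2 was 5.09 and 3.81 points with whole lists, 1.76 and −3.56 with the best 50000 lines, 8.52 and 4.01 with the cover rule, and 3.77 for replicate 2 with 150000 intervals. Weaker lines of the other label were found for 85.6% and 83.9% of regions with the best 100000 lines and 97.1% and 95.9% with the best 50000, as those lists leave more lines out.

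Leaving out 1 library compares 1 library with 2 and so favours its own label. Counts then ranged from 18422 to 33124 (label mandibular process) and from 18424 to 36103 (nose), the share from 33.8% to 64.3%, the maxillary differences from −13.4 to 24.4 and from −17.3 to 22.0 points, and weaker lines from 37.1% to 43.3% and from 36.9% to 44.6%. Both maxillary differences were negative without mandibular process replicate 1 (−13.4 and −15.6) and replicate 2 (−12.5 and −17.3). With 1 library per label, counts ranged from 40740 to 43666 and from 42103 to 46794, the share from 46.5% to 50.9%, the maxillary differences from 3.43 to 5.75 and from −0.151 to 3.80, and weaker lines from 29.6% to 33.97% and from 30.0% to 34.1%.

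The gene test called 0 genes in all 22 alternatives (3 to 4131 genes tested, 1 to 355 at an unadjusted p under 0.05). As regions per gene are few, this does not show that no gene differs. Of 40 named genes with unequal counts, 20 never took the opposite direction over 20 alternatives. Among those named in the report the opposite direction came up in 8 for Runx1 and Fgfr2, 7 for Gli3 and Dlx6, 6 for Pax9, 4 for Sox5, 3 for Hand2, Alx4 and Erg, 2 for Ece1 and Vgll3, and 1 for Pax6, Otx2, Rarg, Psd3 (best 100000 lines), Ptprg (best 50000) and Nckap5 (without mandibular process replicate 1). Other list members were not followed. Of 20 lists with unequal counts, 0 never did, nasal epithelium only without mandibular process replicate 1. Of 24 motifs, 19 never changed sign over 7 alternatives. The others were 2 of the 19 whose interval lay off 0 and, of the 5 whose interval held 0, Ebf, Nfi and Gli. The neurogenic E-box difference was 0.161 points at the same GC distribution and that of Grhl 0.0829 in regions called in both maxillary libraries. The replicate block, which applied the rule within same-numbered libraries, is the same condition as the main rule. Its counts, 12970 and 13572, were therefore the same by construction and are no check. It is included in the 22 alternatives of the gene test and in the 20 of the named genes and lists, which thus hold fewer separate checks. Without read counts, a missing line cannot be told apart from low depth, and regions of a library are not replicates.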
